A study of Danio rerio with 5 samples.

Results

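The genes described here are the zebrafish Bmp, Gdf, Tgfb and inhibin genes, 36 of the 36351 genes in the single-cell files. They were taken by name alone: symbols made of bmp or tgfb with a number and optional letters, gdf with a number, or inha or inhb with any ending, with upper and lower case treated alike so that INHBC was included. 33 of them encode secreted growth factors or their subunits. The other 3 carry a bmp symbol without being ligands. bmp1a and bmp1b encode tolloid-type metalloproteases and bmp2k encodes an intracellular kinase.

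All samples were fluorescence-sorted cells of zebrafish larvae at 5 days after fertilization. The um148 group held 3 bulk libraries of citrine-positive cells from Tg(pdgfrb:citrine)s1010 larvae with the um148 allele, which the strain label writes as pdgfb and the titles name only as um148. The single-cell group held 2 libraries, made with a 10x 3′ kit, of EGFP-positive cells from Tg(pdgfrb:egfp)ncv22 larvae, for which no mutant allele is named. Both reporters are driven by pdgfrb sequences, which mark mural and other mesenchymal cells, so every value below is from cells selected by such a reporter, and the bulk and single-cell groups differ in the reporter line. Wild-type cells enter only through the authors' comparison with um148, and no wild-type sample was analysed here. The labels do not say whether libraries of a group came from separate pools of larvae. The p-values thus rest only on spread between libraries, which may be technical. In the single-cell tests this is the spread left after the overall difference between the 2 libraries was removed. The authors' p-values also rest on wild-type libraries that were not analysed here.

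Ligands of the TGF-beta superfamily are secreted as dimers and bind paired type 1 and type 2 serine/threonine kinase receptors, which phosphorylate Smad proteins that enter the nucleus. Tgfb ligands and activins act mainly through one branch of Smads, and most Bmps and some Gdfs through another. In vessels, skeleton and connective tissue these ligands are known for their part in the differentiation of mural cells, osteoblasts, chondrocytes and tendon cells and in matrix production. Secreted antagonists such as noggin, chordin, gremlin and follistatin bind the ligands outside the cell. The tolloid proteases release Bmps by cleaving chordin and also process fibrillar procollagens.

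After filtering, 5653 and 7358 cells remained in single-cell libraries 1 and 2, with median depths of 5689 and 6062 unique molecular identifiers (UMIs) per cell, and 30 barcode sequences were shared between the libraries. Library 1 lost 3976 barcodes to a high mitochondrial share, against 407 in library 2. Cells were sorted by marker genes into gates: a cell entered a gate when at least 3 of the gate's markers had a UMI and their summed level was at least 3 times that of all kept cells of its library. No gate used any of the 36 genes as a marker, and 59.2% and 60.8% of the cells entered one. Normalized counts of the um148 libraries summed to 16997792, 19409286 and 21231786.

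15 gates with at least 30 cells in each library entered the tests. Levels are given as CPM, a gene's UMIs scaled to the total UMIs of the cells of a gate, library 1 before library 2. pdgfrb itself was highest in the pericyte gate, at 331.9 and 328.1 CPM, and stood at 12.3 and 2.8 CPM in the neuron gate. The gates also covered epidermal, neuronal, muscle, pigment and blood cells, so the sorted cells were not a single cell type. Gates are not pure: 48.2% and 46.4% of the cells in the tenocyte gate also met another gate, most often the fibroblast gate.

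Together the 36 genes gave 484.2 and 498.5 CPM over all kept cells, and 5 of them took 54.1% of these UMIs. inhbaa, an activin subunit, was the most abundant at 62.9 and 76.4 CPM, followed by tgfb1a (61.0 and 64.3 CPM) and tgfb3 (57.5 and 58.7 CPM). By gate, the summed level was highest in the osteoblast gate (1102.2 and 1633.7 CPM) and lowest in the leukocyte gate (119.6 and 127.7 CPM) and the neuron gate (154.8 and 126.7 CPM). In the erythroid gate, which was too small for the tests, it was 15.0 and 72.4 CPM.

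For the tests, UMIs were summed per library and gate. Each gate was set against the mean of the other 14 gates with edgeR's quasi-likelihood test. That mean is taken over log levels, so gates with few or no UMIs pull it down. A log2 fold change can thus exceed the fold over the pooled cells of the other gates. For gdf10a in the chondrocyte gate it was 3.40, at 3.67 and 2.95 times the pooled cells in libraries 1 and 2. A gene was called higher in a gate at an adjusted p under 0.05 (Benjamini-Hochberg over all 15900 genes tested in that gate) with a log2 fold change of at least 1. Of the 36 genes, 26 passed the filter on low counts. A gene of low level passes that filter through the gate where it is high, so counts over these 26 describe them and are not evidence about the family.

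**Figure D1:**
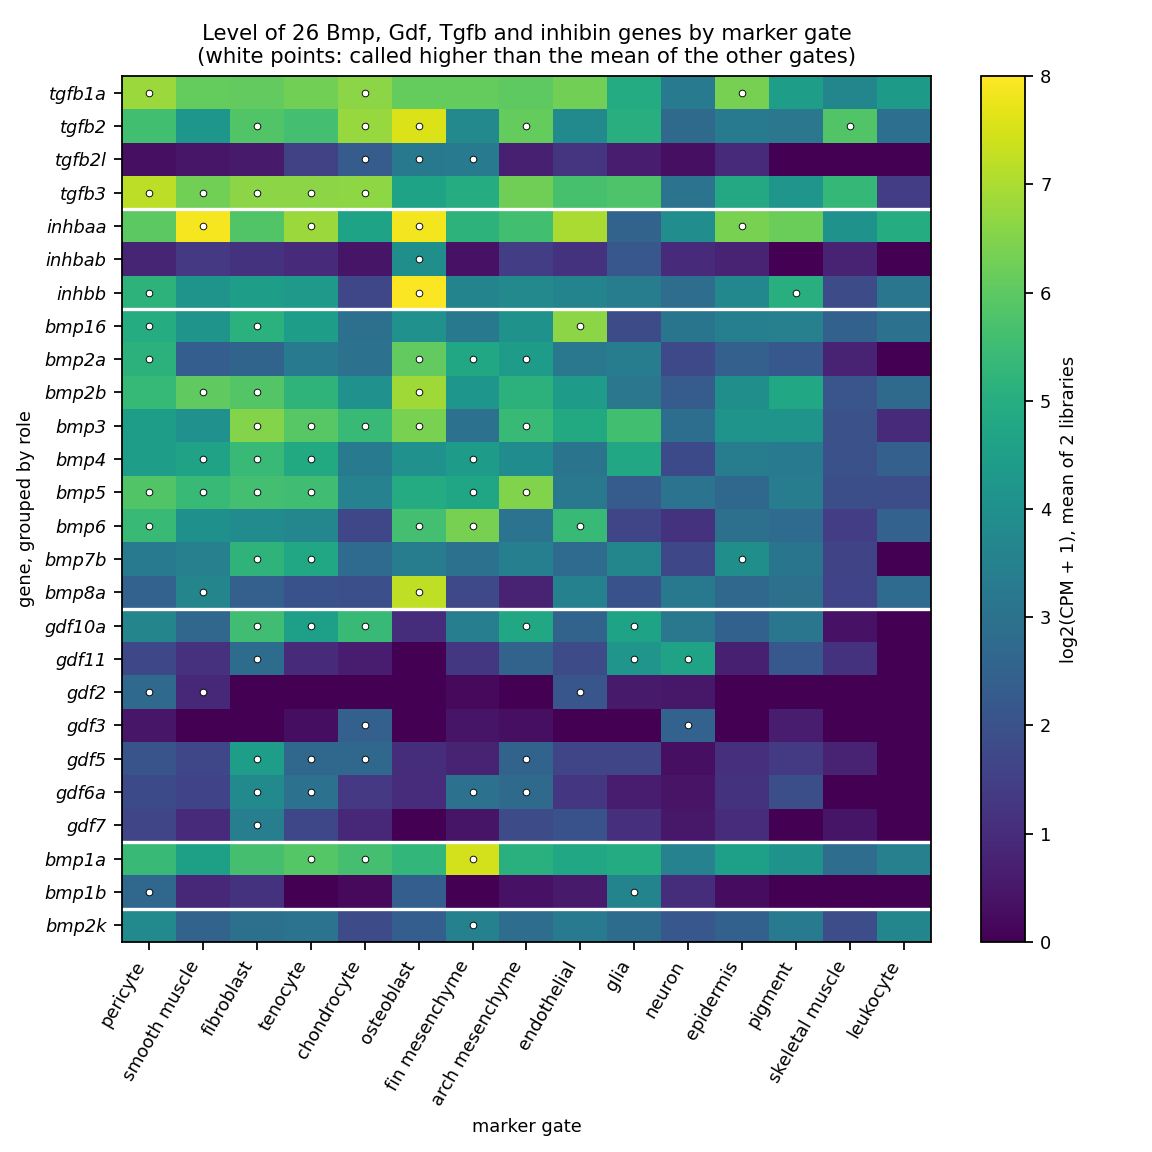
Level of the 26 tested genes (rows, grouped by role) in the 15 marker gates (columns), as log2(CPM + 1) averaged over 2 single-cell libraries. White points mark the 86 gene and gate pairs called higher than the mean of the other gates, and the brightest cells are those of inhbb, inhbaa and tgfb2 in the osteoblast gate, inhbaa in the smooth muscle gate and bmp1a in the fin mesenchyme gate.

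Among the Tgfb genes, which encode ligands secreted in a latent form bound to matrix, each of the abundant members had its own order of gates. tgfb3 (LL0000030227) had 155 and 139 CPM in the pericyte gate, against 51.8 and 56.5 CPM in the pooled cells of the other gates. Both pericyte values lay above those of every other gate in either library. The log2 fold change against the mean of the other gates was 1.86 ± 0.12 (adjusted p = 3.15e-11, edgeR). Here and below, ± after a log2 fold change is a standard error derived from the test statistic. The pericyte value of 1.86 lay under a limit of 2 that was used as an alternative, so the call was not kept under every alternative. tgfb3 was also called in the chondrocyte gate (95.0 and 102 CPM), the fibroblast gate (95.0 and 100.1 CPM), the tenocyte gate (91.1 and 100.3 CPM) and the smooth muscle gate (65.0 and 91.4 CPM). The first 3 of these did not differ beyond the spread between libraries. In the 10 gates without a call tgfb3 ran from 1.5 to 83.0 CPM, with the arch mesenchyme gate at the top and the leukocyte gate at the bottom.

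tgfb2 (LL0000030225) had 128 and 249 CPM in the osteoblast gate, against 34.3 and 35.8 CPM in the pooled cells of the other gates, a log2 fold change of 2.92 ± 0.19 (adjusted p = 5.52e-11, edgeR). The 2 libraries differed widely there, yet both values lay above the chondrocyte gate, the next in order, with 99.9 and 116 CPM and a log2 fold change of 2.55 ± 0.15 (adjusted p = 6.89e-13, edgeR). tgfb2 was the one gene of the family called in the skeletal muscle gate, at 53.9 and 57.6 CPM (log2 fold change 1.82 ± 0.20, adjusted p = 4.55e-08, edgeR). That level was 1.54 times the pooled cells of the other gates in each library, which had 35.0 and 37.5 CPM. tgfb2 was also called in the arch mesenchyme gate (79.3 and 56.2 CPM) and the fibroblast gate (55.4 and 57.2 CPM). In the other 10 gates it ran from 3.99 to 55.0 CPM.

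tgfb1a was spread over many gates, with at least 20 CPM in 11 of the 15. It had 89.3 and 128 CPM in the pericyte gate, 92.5 and 103 CPM in the chondrocyte gate and 76.7 and 86.4 CPM in the epidermis gate, with log2 fold changes of 1.1 ± 0.15, 1.58 ± 0.14 and 1.33 ± 0.14 (adjusted p = 9.15e-06, 2.03e-09 and 1.4e-08, edgeR). These 3 calls were less than 2-fold over the pooled cells of the other gates, at 62.9 and 64.9 CPM for the pericyte gate. The pericyte and chondrocyte ranges overlapped. In the osteoblast gate it had 91.5 and 44.4 CPM without a call. Its lowest levels were in the neuron gate, with 10.1 and 6.98 CPM. tgfb2l stayed under 13 CPM everywhere. Its calls were in the fin mesenchyme gate (7.16 and 11.1 CPM, log2 fold change 4.35 ± 0.44, adjusted p = 7.36e-08), the osteoblast gate (4.07 and 12.7 CPM) and the chondrocyte gate (4.34 and 3.76 CPM), by edgeR.

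inhbaa and inhbb, which encode activin subunits, reached the highest levels of any member in a gate. The beta subunits pair into activins, or with the inhibin alpha subunit into inhibins that oppose them. inhbb (LL0000012755) had 222 and 275 CPM in the osteoblast gate, against 13.6 and 12.1 CPM in the pooled cells of the other gates. The log2 fold change was 4.40 ± 0.18 (adjusted p = 5.11e-15, edgeR). The osteoblast gate is small, with 39 and 49 cells, and the UMIs were spread over many of them: 28 cells in each library held at least 1 inhbb UMI, which is 71.8% and 57.1%. In the erythroid gate, a cell type not known for inhbb, it was 0 of 15 cells in library 1. That allows a share of cells with a UMI of up to 20% and sets no limit on cells expressing the gene. In library 2 it was 3.12%, at a median of 13368 UMIs per cell against 6630 and 7874 in the osteoblast gate. Whether total depth measures detection alike in these gates was not tested. In the endothelial gate the inhbb share was 12.5% and 16.9%. inhbb was also called in the pericyte gate (30.8 and 40.1 CPM, log2 fold change 1.25 ± 0.22, adjusted p = 0.000156, edgeR) and the pigment gate (38.6 and 24.9 CPM, 1.08 ± 0.30, adjusted p = 0.0104, edgeR). The pigment call was lost with 4 markers per gate, with the mitochondrial limit at 20% and without doublet removal.

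inhbaa (LL0000012753) was high in several gates and often differed between the libraries. It had 179 and 291 CPM in the smooth muscle gate, against 46.1 and 64.0 CPM in the pooled cells of the other gates, a log2 fold change of 2.49 ± 0.32 (adjusted p = 1.55e-06, edgeR). In the osteoblast gate it had 150.5 and 311 CPM, a log2 fold change of 2.31 ± 0.42 (adjusted p = 0.000515, edgeR). The smooth muscle and osteoblast values overlapped. Calls of smaller size were in the tenocyte gate (101 and 121 CPM) and the epidermis gate (65.9 and 101 CPM), both under 2-fold over the pooled cells of the other gates. The endothelial gate had 57.3 and 193 CPM without a call (adjusted p = 0.0508, edgeR), and the pericyte gate 25.4 and 100.2 CPM. The pigment gate had 134 CPM from 66 UMIs in 7 cells of library 1 and 12.5 CPM from 11 UMIs in 1 cell of library 2. Its lowest mean level was in the glia gate, with 5.18 and 4.59 CPM.

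The paralog inhbab was about 50 times less abundant than inhbaa, with 1.28 and 1.49 CPM over all kept cells. It was called in the osteoblast gate (2.03 and 27.5 CPM, log2 fold change 4.29 ± 0.84, adjusted p = 0.00128, edgeR), where the level rested on 1 UMI in library 1 and 13 in library 2. inha, the inhibin alpha subunit, had 3 and 2 UMIs in the libraries, and INHBC had 3 and 24 UMIs. Neither was tested. Most INHBC UMIs of library 2 were in cells outside every gate, at 0.988 CPM there.

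**Figure D2:**
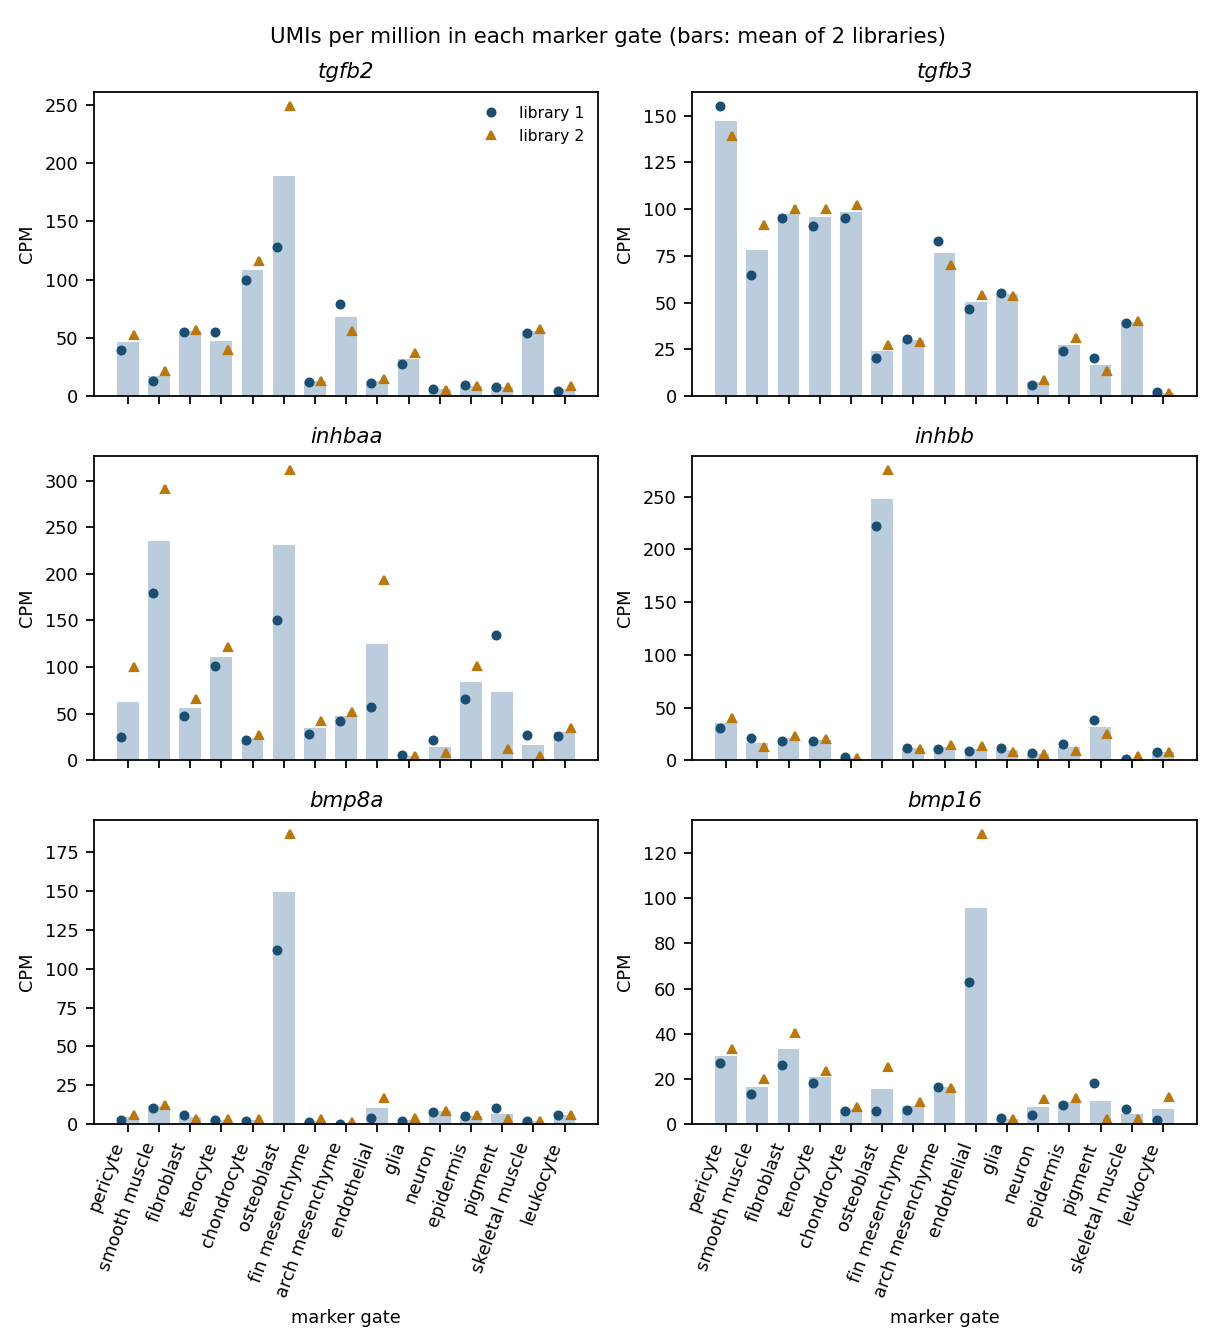
CPM of tgfb2, tgfb3, inhbaa, inhbb, bmp8a and bmp16 in each of the 15 marker gates, with bars for the mean and a circle and a triangle for single-cell libraries 1 and 2. inhbb and bmp8a stand out in the osteoblast gate alone and bmp16 in the endothelial gate. tgfb3 is spread over many gates with the pericyte gate highest, at 155 and 139 CPM.

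Some Bmp ligands were high in 1 gate, and others were spread over several gates, most of them mesenchymal. bmp8a (LL0000001954), of the Bmp5 to Bmp8 subfamily, had 112 and 186 CPM in the osteoblast gate, against 4.49 and 5.56 CPM in the pooled cells of the other gates. Its log2 fold change of 5.05 ± 0.24 (adjusted p = 8.84e-14, edgeR) was the highest of any ligand with 20 CPM or more in a gate. In that gate 28 and 33 cells held a bmp8a UMI, or 71.8% and 67.3%, against 0 of 15 and 6.25% of the cells in the erythroid gate, at the depths given for inhbb. The endothelial gate had 5.0% and 22.0%. A second call was in the smooth muscle gate at 10.6 and 12.5 CPM, and the other 13 gates ran from 0 to 16.9 CPM.

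bmp2a and bmp2b, zebrafish co-orthologs of BMP2, both peaked in the osteoblast gate. bmp2a had 81.3 and 52.8 CPM there (log2 fold change 3.75 ± 0.26, adjusted p = 2.81e-10, edgeR), 37.0 and 31.1 CPM in the pericyte gate (2.58 ± 0.22, adjusted p = 6.34e-09), 32.7 and 20 CPM in the fin mesenchyme gate and 22.1 and 17.9 CPM in the arch mesenchyme gate. The pericyte and fin mesenchyme ranges overlapped. Over all kept cells bmp2a was 1.67 times higher in library 1 than in library 2, the widest gap among the 16 members that reached 20 CPM in a gate. bmp2b had 79.3 and 150 CPM in the osteoblast gate (2.65 ± 0.29, adjusted p = 4.28e-07, edgeR), 59.8 and 70.3 CPM in the smooth muscle gate and 56.3 and 57.8 CPM in the fibroblast gate. In the last 2 of these gates bmp2a had no call, with 5.28 and 3.24 CPM in the smooth muscle gate and 5.73 and 4.13 CPM in the fibroblast gate.

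bmp16 (LL0000001942), a gene of fish related to bmp2 and bmp4, had 63.0 and 128 CPM in the endothelial gate, against 11.0 and 14.9 CPM in the pooled cells of the other gates. The log2 fold change was 2.88 ± 0.23 (adjusted p = 8.34e-10, edgeR), and of the 40 and 59 cells in the gate 52.5% and 69.5% held a bmp16 UMI. In the erythroid gate of library 2 the bmp16 share was 3.12%, with the endothelial gate at median depths of 14349 and 17112 UMIs per cell and the erythroid gate at 13368. In the osteoblast gate the bmp16 share was 5.13% and 12.2%. bmp16 was also called in the fibroblast gate (26.3 and 40.4 CPM, log2 fold change 1.43 ± 0.24) and the pericyte gate (26.9 and 33.2 CPM, 1.11 ± 0.28), which overlapped.

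bmp6 was highest in the fin mesenchyme gate, with 99.9 and 61.0 CPM (log2 fold change 3.54 ± 0.18, adjusted p = 3.18e-14, edgeR). It was called at similar levels in the osteoblast (42.7 and 52.8 CPM), endothelial (41.1 and 42.2 CPM) and pericyte (37.0 and 44.3 CPM) gates, and ran from 0.349 to 19.8 CPM in the other 11. bmp5 was highest in the arch mesenchyme gate, with 87.9 and 88.0 CPM (2.59 ± 0.16, adjusted p = 2.82e-11, edgeR). It was the member with most calls, 6 in all, which included the pericyte gate at 53.9 and 57.5 CPM, the smooth muscle gate at 41.9 and 40.6 CPM and the fibroblast gate at 53.5 and 41.3 CPM. The call in the fin mesenchyme gate (27.7 and 23.9 CPM) was close to the pooled cells of the other gates, at 23.7 and 24.0 CPM. bmp5 was lower in the epidermis, glia, skeletal muscle and leukocyte gates, with at most 6 CPM, and in the endothelial gate, with 4.78 and 11.8 CPM. The neuron gate had 8.01 and 6.63 CPM, the pigment gate 12.2 and 6.80 CPM and the chondrocyte gate 8.07 and 13.3 CPM. In the osteoblast gate bmp5 had 20.3 and 38.0 CPM without a call.

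bmp3, which in mammals opposes other Bmps, was highest in the fibroblast gate, with 90.3 and 89.0 CPM (log2 fold change 2.34 ± 0.17, adjusted p = 1.85e-10, edgeR). The osteoblast gate followed with 77.3 and 86.7 CPM, then the tenocyte gate with 52.7 and 67.1 CPM. The glia gate had 43.7 and 50.5 CPM of bmp3 without a call. That was above the chondrocyte gate (42.2 and 40.0 CPM) and the arch mesenchyme gate (42.4 and 42.3 CPM), both called. bmp4 also led in the fibroblast gate, with 42.0 and 40.7 CPM (1.86 ± 0.18, adjusted p = 2.13e-08, edgeR), and bmp7b did so with 39.6 and 31.8 CPM (2.64 ± 0.22, adjusted p = 2.3e-09, edgeR). bmp7b was also called in the tenocyte gate (28.1 and 24.8 CPM) and the epidermis gate (18.5 and 11.4 CPM). bmp4 was also called in the tenocyte, smooth muscle and fin mesenchyme gates, where it ran from 19.6 to 28.5 CPM. In the glia gate bmp4 had 27.6 and 25.3 CPM without a call.

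Of the Gdf ligands, gdf5, gdf6a and gdf7, the subfamily known for joints and tendons, each had their highest level in the fibroblast gate. gdf5 had 23.4 and 19.1 CPM there, against 2.18 and 2.39 CPM in the pooled cells of the other gates (log2 fold change 3.84 ± 0.30, adjusted p = 7.78e-10, edgeR). gdf6a had 12.9 and 13 CPM (3.37 ± 0.40, adjusted p = 9.29e-07) and gdf7 had 7.64 and 11.8 CPM (3.95 ± 0.50, adjusted p = 3.2e-06, edgeR). In the tenocyte gate they were lower: gdf5 had 5.15 and 5.98 CPM and gdf6a 8.59 and 5.52 CPM, both called, and gdf7 had 2.29 and 2.30 CPM without a call.

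gdf10a, a relative of bmp3, had 49.7 and 41.0 CPM in the fibroblast gate (log2 fold change 3.04 ± 0.25, adjusted p = 1.68e-09, edgeR) and 44.4 and 38.9 CPM in the chondrocyte gate (3.40 ± 0.23, adjusted p = 4.33e-11, edgeR). The 2 gates overlapped, and gdf10a had 0 and 2.11 CPM in the osteoblast gate. It was called as well in the arch mesenchyme gate (27.7 and 24.9 CPM), the glia gate (16.7 and 31.8 CPM) and the tenocyte gate (15.5 and 28.1 CPM). In library 1 the glia and tenocyte levels were close to those of the pooled cells of the other gates, at 15.5 and 15.6 CPM.

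The 18 tested members that had the same highest gate in both libraries were also compared between gates and clusters. In 10 of them the log2 ratio of that class over the others moved by more than the spread between libraries, and none changed sign. When cells were clustered and clusters named by the same markers, 3 clusters carried the markers of a second fibroblast list (cilp, myoc, abi3bpb, chad and omd), and the clusters named fibroblast then exceeded the other named clusters in bmp3, gdf10a and gdf6a by log2 ratios of only 0.10, 0.05 and 0.06. The same ratios for the fibroblast gate over pooled cells of the other gates were 1.89, 1.74 and 2.31. For gdf5 and gdf7 the ratio stayed at 2.57 and 2.62 with clusters, against 3.21 and 3.13 with gates. For bmp7b it was 0.80 with clusters, against 1.86 with gates, and for bmp4 1.26, against 1.53. The other 3 that moved were bmp16 in endothelial cells (3.46 with clusters, against 2.81 with gates), bmp2a in osteoblasts (2.58, against 2.79) and bmp5 in arch mesenchyme (2.04, against 2.10).

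gdf11, related to myostatin and known for a part in axial patterning and neurogenesis, was highest in neural cells. It had 17.6 and 29.7 CPM in the neuron gate (log2 fold change 3.84 ± 0.39, adjusted p = 1.23e-08, edgeR) and 19.0 and 14.9 CPM in the glia gate (3.16 ± 0.45, adjusted p = 6.36e-06, edgeR), and these ranges overlapped. A call in the fibroblast gate (7.64 and 4.45 CPM) turned to a log2 fold change of -3.42 when a gate needed 10 times the marker level.

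gdf2 and gdf3 were called from few UMIs. gdf2, which encodes the circulating ligand also known as Bmp9, had 19 and 27 UMIs in all. It reached 6.16 and 5.27 CPM in the pericyte gate, against 0.247 and 0.305 CPM in the pooled cells of the other gates (log2 fold change 5.22 ± 0.77, adjusted p = 0.000187, edgeR), and 0.955 and 5.91 CPM in the endothelial gate (4.51 ± 0.95, adjusted p = 0.00308, edgeR). Another call, in the smooth muscle gate, rested on 0.990 and 0.747 CPM. gdf3, which pairs with Nodal ligands in the early embryo, had 23 and 50 UMIs in all. Its levels were 5.34 and 4.19 CPM in the neuron gate and 2.79 and 6.19 CPM in the chondrocyte gate. In library 1 the chondrocyte level came from 9 UMIs in 3 of 397 cells, and the neuron level from 10 UMIs in 10 of 465 cells. In RefSeq's gene order for assembly GRCz12tu, gdf2 lies next to gdf10b and gdf3 next to bmp2a. The submitters' notes name another build, GRCz11. gdf10b had 0 UMIs in the pericyte gate of both libraries. bmp2a had 3.74 and 1.05 CPM in the neuron gate and 8.69 and 5.31 CPM in the chondrocyte gate. Any part of these neighbours in the gdf2 and gdf3 levels was not tested.

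The genes with a bmp symbol that are not ligands had patterns of their own. bmp1a, of the proteases that process procollagen and chordin, had 172 and 178 CPM in the fin mesenchyme gate, against 32.2 and 28.7 CPM in the pooled cells of the other gates. The log2 fold change was 3.06 ± 0.12 (adjusted p = 4.48e-16, edgeR). Its calls in the chondrocyte gate (48.4 and 50 CPM, log2 fold change 1.28 ± 0.15) and the tenocyte gate (55.6 and 60.7 CPM, 1.14 ± 0.16) were barely above the pooled cells, at 47.2 and 45.7 CPM for the chondrocyte gate. The test weights each of the other gates equally, including gates in which bmp1a was low. bmp1b was rare and called in the glia gate (15.0 and 7.66 CPM, 4.64 ± 0.61, adjusted p = 5.15e-06, edgeR) and the pericyte gate (7.70 and 3.16 CPM, 3.72 ± 0.78, adjusted p = 0.00217, edgeR). The kinase gene bmp2k ran from 1.55 to 15.9 CPM over the 14 gates without a call. Its single call was in the fin mesenchyme gate, at 9.03 and 11.7 CPM (1.12 ± 0.21, adjusted p = 0.000158, edgeR). That gate did not have the highest mean level: the pericyte gate had 14.6 and 11.1 CPM, with a log2 fold change of 0.90 ± 0.27, under the limit for a call.

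10 members did not pass the filter on low counts: bmp7a, bmp10, bmp10l, bmp15, gdf6b, gdf9, gdf10b, inha, INHBC and tgfb1b. gdf10b was the most abundant of them with 125 UMIs over both libraries, and none averaged over 4.51 CPM in a gate. bmp10 and bmp10l, ligands of the heart, and bmp15 and gdf9, ligands of the oocyte, had between 6 and 9 UMIs each over both libraries. Of several pairs of paralogs 1 copy held most of the UMIs. tgfb1a exceeded tgfb1b 63.4 and 173 times in libraries 1 and 2, inhbaa exceeded inhbab 49.1 and 51.3 times, tgfb2 exceeded tgfb2l 24.1 and 19.5 times, bmp1a exceeded bmp1b 32.6 and 47.9 times and gdf10a exceeded gdf10b 8.83 and 27.6 times. Whether the authors' counting split reads between near-identical copies was not tested.

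Counted over gates, 86 of the 390 pairs of a tested member and a gate were called higher and 51 were called lower by the same limits. Mesenchymal gates held most of the higher calls. In the fibroblast gate 13 of the 26 tested members were called, against 11.2% of all genes tested. Counts were 10 in the tenocyte gate (9.46% of all genes), 10 in the osteoblast gate (4.92%), 9 in the pericyte gate (8.38%), 9 in the chondrocyte gate (9.43%), 8 in the fin mesenchyme gate (12.8%), 7 in the smooth muscle gate (13.5%) and 7 in the arch mesenchyme gate (9.26%). The endothelial gate had 3, or 11.5% of the tested members, near the 10.9% of all genes. The glia (16.5% of all genes) and epidermis (15.0%) gates had 3 each, and the neuron gate (31.5%) had 2. The skeletal muscle (14.7%) and pigment (10.8%) gates had 1 each. In the leukocyte gate edgeR called 0 members, against 14.8% of all genes. At an unadjusted p under 0.05 with the same fold it held 1, and DESeq2 called 1.

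Lower calls ran the other way. 13 tested members were called lower in the neuron gate, against 16.0% of all genes, 10 in the leukocyte gate (14.2%), 8 in the skeletal muscle gate (9.34%) and 8 in the glia gate (8.23%). bmp6, tgfb1a and bmp2b had the lowest fold changes in the neuron gate. The pigment gate had 4 (5.91%), the chondrocyte (4.38%), endothelial (1.65%) and epidermis (6.09%) gates 2 each, and the fin mesenchyme (6.26%) and arch mesenchyme (3.21%) gates 1 each. edgeR called 0 members lower in the fibroblast (2.06% of all genes), tenocyte (0.604%), osteoblast (2.35%), pericyte (1.53%) and smooth muscle (0.553%) gates. This side of the test was added after the values had been seen.

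18 of the 26 tested members had the same highest gate in both libraries, and for 16 both values there lay above every value of any other gate. The same counts were not made over all genes tested, so they describe these members and are not evidence about the family. 7 of the 18 peaked in the fibroblast gate, 5 in the osteoblast gate (bmp2a, bmp2b, bmp8a, inhbb and tgfb2), 2 in the fin mesenchyme gate (bmp1a and bmp6) and 1 each in the arch mesenchyme (bmp5), endothelial (bmp16), glia (bmp1b) and pericyte (tgfb3) gates. With clusters in place of gates, the ratio of that class over the others moved beyond the spread between libraries for 10 of these 18, which were the 7 of the fibroblast gate with bmp2a, bmp5 and bmp16, and stayed within it for 8. Of the 86 calls, 39 were also at least 2-fold over the pooled cells of the other gates in each library. Among the 16 members with at least 20 CPM and 10 UMIs in a gate in each library, the profiles of log2(CPM + 1) over the 15 gates were most alike for bmp3 and bmp7b (Pearson r = 0.84) and least alike for bmp8a and gdf10a (r = -0.44), out of 120 pairs. The gates share the same 2 libraries, so these r describe the profiles only.

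In the mutant, the authors' deposited table compares the 3 um148 libraries with wild-type and lists 26 of the 36 genes, each with an adjusted p. The direction of its fold change was read from the totals. With um148 as the numerator, the wild-type total comes to 20284258, against 19212955 for the um148 mean. With wild-type as the numerator it comes to 91949403. Values are counts normalized per library and were not divided by transcript length, so they compare libraries and not genes. In bulk samples, fewer cells of a type and less RNA per cell cannot be told apart.

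In the authors' deposited table inhbaa and bmp16 passed an adjusted p of 0.05 with lower values in um148, 2 of the 26, against 5.13% of the 16853 genes with an adjusted p. No member was higher (0 of 26), against 6.18% of all genes. At an unadjusted p under 0.05, 4 members were lower and 1 was higher, and the share of all genes at that limit was not counted. The median log2 fold change of the 26 was -0.13, beside 0.02 for all genes of the table, and 17 of the 26 lay within 0.5 of 0. The share of members lower, 7.69%, was near that of all genes, so the count says nothing particular about the family.

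inhbaa had normalized counts of 516, 498 and 710.1 in um148 libraries 1 to 3, averaging 575 ± 118 (SD, n = 3), against a wild-type mean of 1390 implied by the fold change of the authors' deposited table. All 3 um148 values lay below that mean. The log2 fold change was -1.27 ± 0.29, with the authors' adjusted p at 0.000396 in the deposited table. Recomputed on the same implied wild-type mean with each um148 library left out, it lay between -1.46 and -1.18. bmp16 had normalized counts of 324, 295 and 402, averaging 340.2 ± 55.6 (SD, n = 3), against an implied wild-type mean of 624. Again all 3 libraries were below it. The log2 fold change was -0.88 ± 0.28, with the authors' adjusted p at 0.0232 in the deposited table. Recomputed on the same implied wild-type mean with 1 um148 library left out, it lay between -1.01 and -0.78.

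**Figure D3:**
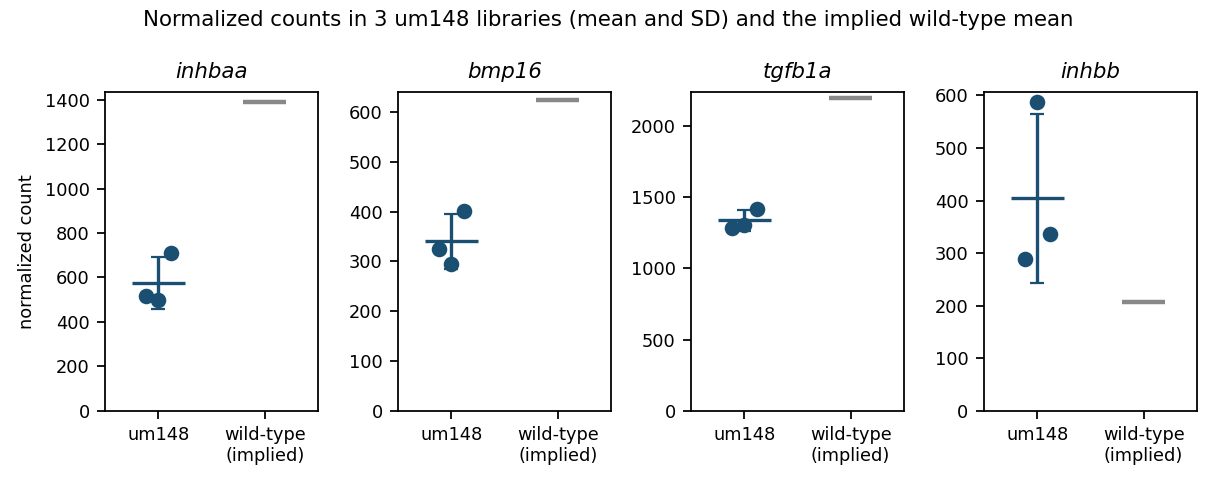
Normalized counts of inhbaa, bmp16, tgfb1a and inhbb in the 3 um148 libraries (points, with the mean as a line and the SD as a bar) and the wild-type mean implied by the fold change of the authors' deposited table (grey line, without an error). All um148 values of inhbaa, bmp16 and tgfb1a lie below the implied mean, and all of inhbb lie above it.

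3 further members had an unadjusted p under 0.05 without passing the adjusted limit. tgfb1a had the tightest um148 values of these, at 1283, 1307 and 1420 against an implied wild-type mean of 2194, with a log2 fold change of -0.72 ± 0.28 and an adjusted p of 0.0778 in the authors' deposited table. inhbb had 288, 588 and 336 against an implied 206, with 0.97 ± 0.36 and an adjusted p of 0.0572 in the authors' deposited table. Library 2 stood apart from the other two, and without it the log2 fold change of inhbb, recomputed on the same implied wild-type mean, was 0.59. bmp1b had 112, 84.9 and 41.6 against an implied 156, with -0.97 ± 0.44 and an adjusted p of 0.141 in the authors' deposited table.

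The remaining 21 members in the authors' deposited table had adjusted p-values from 0.23 for tgfb2l upward. tgfb3, the leading Tgfb gene of the pericyte gate, had 5271, 6622 and 4465 normalized counts, with a log2 fold change of -0.12 ± 0.26 and an adjusted p of 0.819 there. Its um148 libraries were spread on both sides of the implied wild-type mean of 5936. Of the members that peaked in the osteoblast gate, bmp2a had -0.29 ± 0.28, bmp8a -0.31 ± 0.35 and tgfb2 -0.23 ± 0.30 in the same table. bmp2b had 0.14 ± 0.25, and inhbb, described above, had 0.97 ± 0.36. None of them was called. The 7 members that peaked in the fibroblast gate ran from -0.30 ± 0.27 for gdf10a to 0.45 ± 0.31 for gdf5, again with none called. Within um148, the highest library exceeded the lowest by 1.09 times for bmp5 and by 2.93 times for gdf11, with a median of 1.63 times over the 26.

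**Figure D4:**
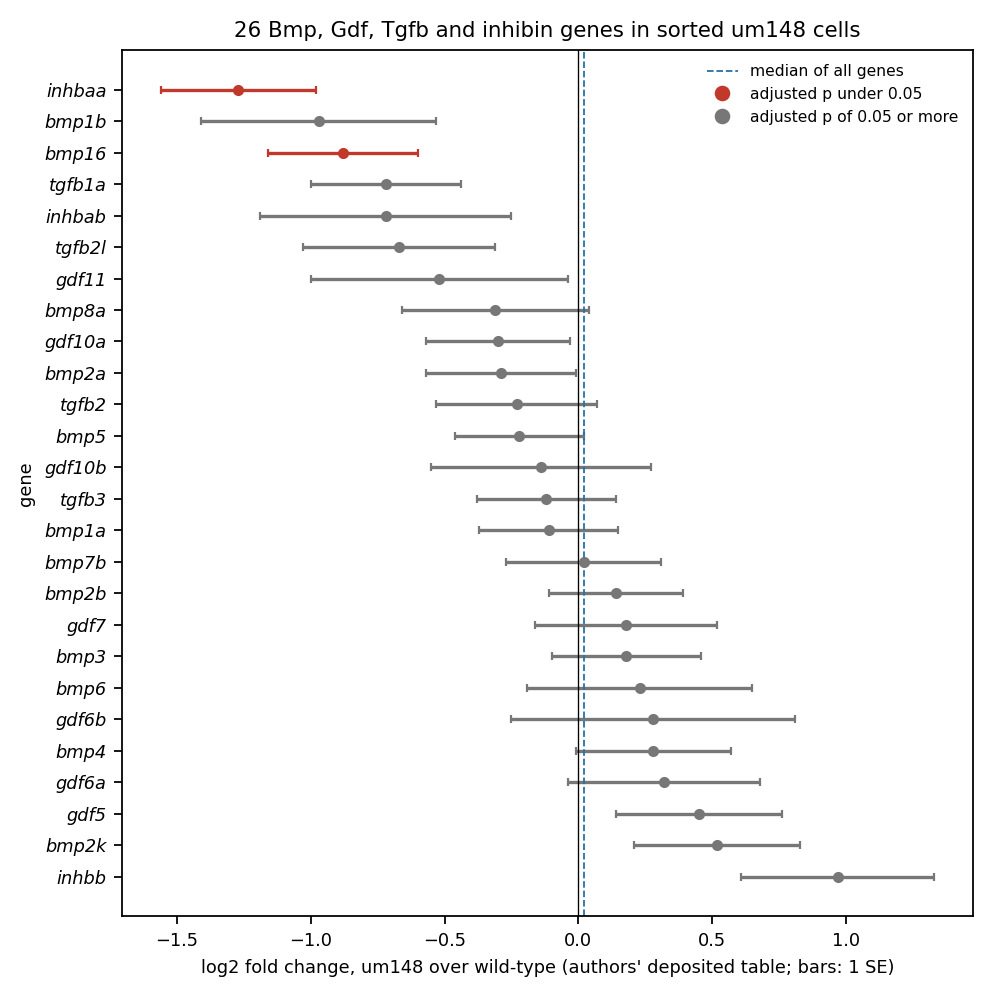
Log2 fold change, um148 over wild-type, of the 26 members in the authors' deposited table, with 1 standard error on each side derived from the test statistic. Red points (inhbaa and bmp16) have an adjusted p under 0.05, grey points do not, and the dashed line is the median of all genes at 0.02.

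Some marker lists of the gates moved beside these results in the authors' deposited table, and others did not. Of the pericyte list, 4 of 9 markers were lower (kcne4, kcnj8, ndufa4l2a and rgs5b), and the summed normalized counts were 21984, 25877 and 36042 in um148, against an implied 44232 in wild-type. Of the osteoblast list, 3 of 8 listed markers were lower (col10a1a, ifitm5 and spp1), with sums of 11570, 12102 and 11094 in um148 against an implied 24287. For the smooth muscle list, 0 of 10 were called, with sums from 12816 to 15953 against an implied 15910. For the endothelial list, 0 of the 10 with an adjusted p were called, with sums from 1616 to 1935 against an implied 2081. Of the fibroblast list, 2 of 11 were lower (fbln5 and mfap5), with sums of 41645, 36105 and 45080 against an implied 47241. Of the epidermis list, 2 of 11 were higher (cdh1 and krtt1c19e) and epcam was lower, with sums of 56136, 32311 and 37520 against an implied 23345. Of the skeletal muscle list, 4 of 12 were higher, with sums of 22480, 53384 and 10261 against an implied 6965, and library 2 stood above the other two. Of the chondrocyte list of 13, acanb was higher and ucmaa was lower, with sums of 576376, 1014259 and 955179 against an implied 562585. No listed marker of these lists was at 0 in a um148 library. inhbaa was highest in the smooth muscle and osteoblast gates and bmp16 in the endothelial gate of the single-cell data, and the part of cell composition in their lower values was not tested. pdgfrb, whose sequences drive the reporter, was also lower, at 4852, 5357 and 3845 against an implied 10802.

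Genes acting with these ligands were described by 4 lists of symbols, not all of which are in the gene annotation. The single-cell data held 21 of the 26 listed receptors and co-receptors and 10 of the 14 Smad symbols. The same data held 27 of the 32 antagonists and binding proteins and 18 of the 19 response genes. Of the receptors and co-receptors, 20 of 26 were in the authors' deposited table, and 4 were higher and 0 lower in um148, beside the 6.18% and 5.13% of all genes. tgfbr1b, a type 1 receptor for Tgfb ligands, had normalized counts of 494, 495 and 654 in um148 against an implied wild-type mean of 24.7, with a log2 fold change of 4.47 ± 0.41 and an adjusted p of 1.33e-24 in the authors' deposited table. Its paralog tgfbr1a had 205, 211 and 296 against an implied 93.7 (1.34 ± 0.36, adjusted p = 0.00359 there). The type 2 receptors bmpr2b (1.67 ± 0.28, adjusted p = 2.17e-07) and acvr2ba (1.01 ± 0.25, adjusted p = 0.00111) were the other two in that deposited table. In the single-cell libraries tgfbr1b had 7.63 and 8.44 CPM over all kept cells. The receptors of highest level were tgfbr3, the co-receptor betaglycan, at 45.1 and 44.9 CPM with the fibroblast gate on top, rgmb at 34.6 and 34.9 CPM with the neuron gate on top, and bmpr2a at 33.9 CPM in each library with the endothelial gate on top.

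Of the Smad genes, 9 of 14 were in the authors' deposited table, with 1 lower and 2 higher, beside 5.13% and 6.18% of all genes. The inhibitory Smads smad6a (0.88 ± 0.29, adjusted p = 0.0244) and smad6b (0.96 ± 0.34, adjusted p = 0.0458) were higher in um148, and smad9, a Smad of the Bmp branch, was lower (-0.86 ± 0.27, adjusted p = 0.0223 in the same deposited table). Over all kept cells smad3a was the most abundant Smad at 49.4 and 52.2 CPM, with 134 and 173 CPM in the osteoblast gate. smad7 (39.0 and 40.3 CPM) and smad1 (29.5 and 27.0 CPM) followed.

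Of the secreted antagonists and binding proteins, 21 of 32 were in the authors' deposited table, with 2 lower and 1 higher, beside 5.13% and 6.18% of all genes. fstl3, a follistatin-like protein that binds activins, had 3237, 3164 and 3241 normalized counts in um148 against an implied 10042, a log2 fold change of -1.64 ± 0.22 with an adjusted p of 6.93e-11 there. The 3 libraries were nearly equal. fstl3 was highest in the tenocyte gate of the single-cell data, with 413 and 408 CPM. sost, which encodes sclerostin, was lower (-0.79 ± 0.28, adjusted p = 0.0459 in the authors' deposited table) and was highest in the arch mesenchyme gate with 519 and 478 CPM. nog1, a noggin, was higher (1.38 ± 0.41, adjusted p = 0.0119 there), with its um148 values spread over 633, 411 and 1057. fstl1b, the most abundant of the list at 271 and 265 CPM over all kept cells, had -0.77 ± 0.28 and an adjusted p of 0.0538 in the authors' deposited table.

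Of the response genes, 18 of 19 were in the authors' deposited table, with 4 lower and 2 higher, beside 5.13% and 6.18% of all genes. id1 and id2b, direct targets of Bmp signalling, were lower: id1 had 5427, 3951 and 6417 normalized counts in um148 against an implied 10714 (-1.03 ± 0.27, adjusted p = 0.00313), and id2b had 617, 461 and 742 against an implied 1358 (-1.16 ± 0.29, adjusted p = 0.002 in the authors' deposited table). tgif1 had 1683, 786 and 1664 against an implied 4680 (-1.76 ± 0.34, adjusted p = 2.03e-05 there). Library 2 stood below the others for tgif1, and without it the log2 fold change, recomputed on the same implied wild-type mean, was -1.48. msx3 (0.88 ± 0.30, adjusted p = 0.0379 in the deposited table) and smad6a, which is on this list and on that of the Smads, were higher. tgfbi, among the most abundant genes of the list, had 0.19 ± 0.35 and an adjusted p of 0.788 in the authors' deposited table.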

How the data were processed

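The single-cell matrices hold UMI counts for 36351 genes, which the authors deposited per called barcode. Per the submitters' processing notes, tools named for the series include Cell Ranger 3.1.0, STAR, RSEM and DESeq2, with build GRCz11. No genome positions or sequences are given. The um148 columns of the deposited bulk table hold a normalized signal: per its values, counts scaled within each library by the authors. The same table gives the log2 fold change, a test statistic (a score), the p-value, the adjusted p-value and its −log10 value, as deposited by the authors. 3 further columns of per-sample values were not used. Of the table's 17540 genes, 16853 have an adjusted p, and the others were not counted as called. Members, gates and lists were chosen with earlier results of these data known.

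Barcodes with fewer than 500 genes or over 10% of UMIs from 13 mitochondrial genes were removed, and then those of highest doublet score (282 and 493, since the automatic threshold marked 0). A cell meeting several gates went to the gate with the largest share of its markers, and ties stayed out. Gates used 19 marker lists, of which 15 had 30 cells in each library. UMIs summed per library and gate were fitted in edgeR 4.0.16 (TMM factors, filterByExpr, quasi-likelihood test, library as a block because gates of a library share its cells, 14 residual degrees of freedom). Standard errors are the fold change divided by the root of the test statistic. In the authors' table the same reading of the statistic was not tested. In data simulated for the fin mesenchyme gate over 15900 genes, with 100 genes raised 4-fold and 100 raised 2-fold, 92 and 52 of them passed the adjusted p, and 3 of the 15700 unchanged genes did. With the limit on the log2 fold change added, as for a call, these were 92, 40 and 1. Apart from the raised genes, all simulated gates shared the same means, unlike the gates of the data. The simulated spread between libraries was set by a dispersion of 0.05, against a common dispersion of 0.0217 in the fit of the data. No genes were raised in the gates of few cells, so recovery there was not tested. A member was named where it reached 20 CPM in a gate with 10 UMIs in each library, was called in a gate, or had an authors' adjusted p under 0.05. Of the 4 pathway lists, genes called in um148 and the 3 of highest CPM were named. 1 response gene that the rule takes is not reported here. Gate labels rest on markers alone. The alternatives chosen after seeing the data were leaving out cells that meet several gates, and a 2-fold limit over pooled cells. DESeq2 1.42.0 served as another alternative.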

Additional observations from a re-analysis of the deposited data

Results flagged for a closer look

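Barcodes removed for their mitochondrial share are outside every comparison and still held UMIs of the Bmp, Gdf, Tgfb and inhibin genes. In single-cell library 1 the 3976 removed barcodes held 2765 such UMIs, or 187.5 CPM, against 484.2 CPM in the kept cells. In library 2 the 407 removed barcodes held 555, or 288.4 CPM, against 498.5 CPM in the kept cells. These barcodes belong to no gate, and the level in them was not tested.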

How the results depend on the processing

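Of the 86 higher calls, all 86 were kept without the replicate block, which gave 86 calls, and 77 were kept with DESeq2, 55 of 68 at 10 times the marker level and 71 of 80 with 4 markers per gate. 26 calls of 16 members passed under every alternative fit that had the gate, among them inhbb, bmp8a, tgfb2, bmp2a and bmp2b in the osteoblast gate, bmp16 in the endothelial gate and bmp1a in the fin mesenchyme gate. The calls of tgfb3 in the pericyte gate and of bmp4, gdf6a and gdf7 in the fibroblast gate were not among these 26. For tgfb3 and bmp4 the log2 fold change there was 1.86, under the limit of 2 used as an alternative. Without cells meeting several gates the osteoblast gate fell under 30 cells and was not fitted. The total was 45 at a log2 fold change of at least 2 and 39 with a 2-fold limit over pooled cells. At a log2 fold change of at least 2, the counts were 4 for pericyte, 2 for smooth muscle, 3 for tenocyte, 5 for chondrocyte, 5 for fin mesenchyme, 3 for arch mesenchyme, 6 for fibroblast and 0 each for epidermis, skeletal muscle and pigment. With the pooled limit they were 5 for pericyte, 2 for smooth muscle, 1 for tenocyte, 3 for chondrocyte, 5 for fin mesenchyme, 1 for arch mesenchyme, 1 for endothelial and 0 each for epidermis, skeletal muscle and pigment. At 10 times the marker level they were 5 for fin mesenchyme, 4 for arch mesenchyme, 7 for fibroblast, 1 for neuron and 2 for skeletal muscle, and gdf11 in the fibroblast gate reversed to -3.42. With 4 markers they were 1 for neuron and 0 for pigment. Without the filter on low counts they were 5 for endothelial, 5 for glia and 1 for leukocyte, and without cells meeting several gates 7 for endothelial, 1 for neuron, 5 for glia and 2 for leukocyte. DESeq2 gave 1 for neuron and 1 for leukocyte, RLE size factors 1 for leukocyte, the mitochondrial limit of 20% 1 for leukocyte and 0 for pigment, and no doublet removal 0 for pigment. With 1 single-cell library left out, assuming that the remaining one varies like the other gates, counts ran from 4 to 5 for smooth muscle, 5 to 6 for fin mesenchyme, 2 to 6 for endothelial, 5 to 6 for glia, 1 to 2 for epidermis, 0 to 1 for leukocyte and 1 to 5 for pigment. In um148, an adjusted p of 0.01 left 1 member, inhbaa. The cause of these changes was not tested. Shares of all genes were not counted under the alternatives, so these counts describe the members only. Depth limits the 10 untested members and the gates of few cells.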
